A study of Mus musculus with 18 samples.

Results

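Mtor, Rptor, Rictor, Tsc1, Tsc2, Akt1, Rheb and Rps6kb1 encode core parts of mTOR signalling, and their mRNAs were followed through polysome fractions of mouse brain slices. The genes were chosen by symbol, and all 8 are among the 13973 genes of the deposited count table. The study compared slices of brain from wild-type mice (WT) and from Fmr1 knockout mice (KO), which lack FMRP, the RNA-binding protein lost in fragile X syndrome. Slices were incubated for 30 min with 20 µM homoharringtonine (HHT) or with its solvent DMSO (vehicle). The mice were male, on the C57BL/6N strain and between postnatal days 28 and 35, and the KO line had been backcrossed onto C57BL/6. The knockout is carried by the whole animal, and 10 slices of 400 µm pooled from 2 or 3 mice made up 1 replicate, so that no value belongs to a single animal. From each lysate came a library of the cleared lysate (input) and libraries of the pooled medium and heavy polysomes of a sucrose gradient. HHT groups have 2 replicates and vehicle groups 1 library per genotype and fraction, which gives 18 libraries in 12 groups.

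The mTOR kinase works in a pair of protein complexes. Together with Raptor, encoded by Rptor, it forms mTORC1, which drives protein synthesis and cell growth. With Rictor it forms mTORC2, which acts on Akt and on the cytoskeleton. Growth factors act through PI3K and Akt to inhibit the complex of hamartin (Tsc1) and tuberin (Tsc2), which switches off the small GTPase Rheb, the direct activator of mTORC1. S6 kinase, encoded by Rps6kb1, is phosphorylated by mTORC1 and acts on the translation machinery. In neurons the pathway is needed for lasting forms of synaptic plasticity, and loss of Tsc1 or Tsc2 causes tuberous sclerosis. mTORC1 signalling has been reported as raised in the hippocampus of Fmr1 knockout mice. These libraries measure mRNA and its distribution over polysomes, not kinase activity or protein.

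HHT keeps new ribosomes from leaving the start codon, while those already on the coding sequence run off its end. The bases around each start codon and the coding length, which sets how far ribosomes have to run, are therefore shown first. Each line gives 9 bases before the start codon, the start codon ATG in capitals and 9 bases after it, from the principal transcript of GENCODE M21 on GRCm38 (mm10), read 5′ to 3′ on the gene's own strand.
Mtor: cagggcaagATGcttgggacg
Rptor: cctcccctgATGgagtcggag
Rictor: cccgtcaatATGgcggcgatc
Tsc1: agtgagagaATGgcccagtta
Tsc2: ctgcccaccATGgccaaacca
Akt1: acggataccATGaacgacgta
Rheb: gccaccaagATGcctcagtcc
Rps6kb1: tccgggcccATGaggcgacga

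The coding sequence of Mtor, the kinase itself, is the longest, with 7650 bases over a gene of 58 exons at chr4:148448611-148557683, plus strand. The scaffolds Rptor (4008 coding bases, chr11:119602905-119899576, plus strand) and Rictor (5127, chr15:6708379-6800401, plus strand) are also long. Of the inhibitory pair, Tsc1 has 3483 coding bases (chr2:28641228-28691167, plus strand) and Tsc2 has 5229 (chr17:24595816-24632630, minus strand). The kinases Akt1 (1443, chr12:112653821-112674884, minus strand) and Rps6kb1 (1578, chr11:86498871-86544805, minus strand) lie near the median of 1425 coding bases over the 13049 genes that matched a transcript. Rheb is the shortest, with 555 coding bases (chr5:24802823-24842624, minus strand). A purine stood 3 bases before the start codon in 6 of the 8 genes and in 86.6% of 12747 genes, and the exceptions were Rptor and Rps6kb1. A G followed the ATG in 4 of the 8 (Rptor, Rictor, Tsc1 and Tsc2) and in 52.7% of 13049 genes. These shares describe the sequences and were not tested.

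Libraries held 6226237 to 13834652 estimated counts, and the 8 mRNAs had 76.3 (Rps6kb1) to 5436 (Mtor) counts per library. Fmr1 lay at 13.9 to 32.2 CPM (counts scaled to a common library size) in the 9 WT libraries and at 4.62 to 8.53 CPM in the 9 KO libraries, so every library matched its labelled genotype. All 5 neuronal markers (Snap25, Syt1, Rbfox3, Slc17a7 and Gad1) were measured in every library, with sums of 5621 to 10210.1 CPM, beside 0.749 to 27.8 CPM for the 2 of 4 haemoglobin genes measured, and no measured marker was at 0. A CPM value is the share of one fraction's mRNA, so a loss common to all mRNAs of a fraction does not show. Unless stated otherwise, a change is a log2 difference ± SE from edgeR's quasi-likelihood test over all 13973 genes with Benjamini-Hochberg adjustment, and a call is an adjusted p under 0.05. Nothing in the labels ties the replicates to separate preparation days. Each vehicle group has 1 library, so p-values of this main fit measure the spread between pools of HHT slices. The spread between pools of vehicle slices is not measured. The main fit does not pair the fractions of a lysate. Where libraries or ratios are said not to overlap, the share of all genes that separate in this way was not counted. With so few libraries on a side, such separation can arise without a difference.

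In the lysate of vehicle slices, the mRNAs of Rheb, the GTPase that Tsc2 switches off, and of Akt1, the kinase that inhibits Tsc2, were the most abundant of the 8. Per length, in rescaled TPM (the authors' length-scaled values), Rheb stood at 187 and Akt1 at 184 (mean of 2 libraries), ahead of 92.2% and 92.0% of genes. Tsc2 followed at 88.3, Mtor at 51.4 and Rptor at 38.6. Lowest were Tsc1 at 20.8, Rps6kb1 at 14.8 and Rictor at 11.1. The level of Rheb exceeded that of Rictor 16.9-fold. The ranges of the 2 libraries overlapped for the neighbours Rheb and Akt1 and for no other neighbours in this order. The scaffold of mTORC1 thus stood above that of mTORC2, and Tsc2 stood above its partner Tsc1.

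The order of levels was different on polysomes. In heavy polysomes of vehicle slices Tsc2 came first at 191 rescaled TPM, then Akt1 at 111, and Rheb, Mtor and Rptor followed at 86.1, 78.3 and 71.5 with ranges that overlapped between neighbours. Rps6kb1 was last at 7.34. After HHT, heavy polysomes held Tsc2 at 204, Akt1 at 198 and Mtor at 166 (mean of 4 libraries), whose ranges overlapped between neighbours, and Rps6kb1 remained last at 12.3. In medium polysomes of vehicle slices Mtor was the sixth of the 8, at 15.3, and Rheb stood at 259.6. After HHT the medium fraction held Mtor at 47.5 and Rheb at 172.

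**Figure D1:**
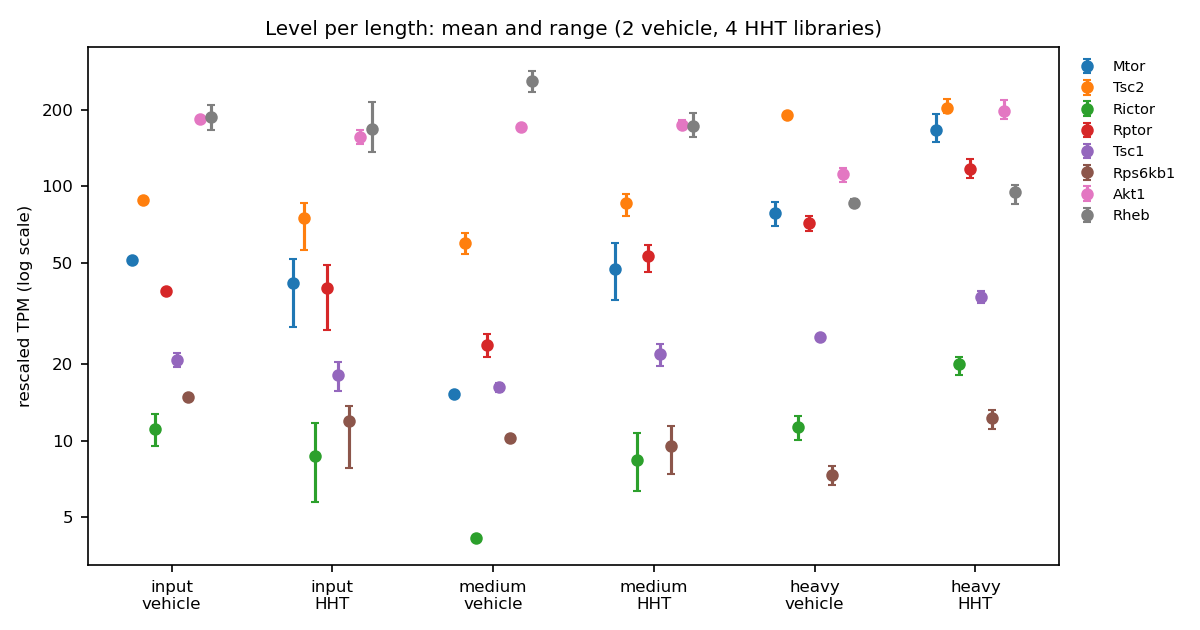
Level per length (rescaled TPM, log scale) of the 8 mRNAs by fraction and treatment, as the mean with a bar from the lowest to the highest library (2 vehicle and 4 HHT libraries). Rheb and Akt1 are at the top in input, Tsc2 is at the top in heavy polysomes, and Rictor or Rps6kb1 is at the bottom throughout.

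In slices without drug, the 5 mRNAs with the longest coding sequences were higher in heavy than in medium polysomes, and Rheb was higher in medium. From medium to heavy, 5 of the 8 were higher (Mtor, Rptor, Rictor, Tsc1 and Tsc2) and 2 were lower (Akt1 and Rheb), beside 25.9% of all genes higher and 28.1% lower. Genes of like length were called more often. Of genes with 4000 and more coding bases 64.0% were higher, and of those with 2000 to under 4000 48.9%. Of those under 1000, 63.9% were lower. Mtor read 144 (WT) and 144 (KO) CPM in input, 49.2 and 46.2 CPM in medium, and 237 and 289 CPM in heavy polysomes. Medium was thus the low point and heavy the high point for Mtor in both genotypes, with a heavy over medium difference of 2.46 ± 0.29 (adjusted p = 1.44e-05). Tsc2 went from 125 (WT) and 146 (KO) CPM in medium to 461 and 477 CPM in heavy, a difference of 1.79 ± 0.16 (adjusted p = 2.63e-06). Rptor went from 54.5 and 64.8 to 183 and 205 CPM (1.70 ± 0.20, adjusted p = 1.48e-05). These libraries did not overlap between the fractions for any of the 3 mRNAs.

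Rictor followed the same pattern at lower levels, with 13.9 (WT) and 14.1 (KO) CPM in medium and 37.1 and 45.3 CPM in heavy polysomes (1.55 ± 0.26, adjusted p = 0.00022). Tsc1, at 48.0 and 42.5 CPM in medium against 78.1 and 75.7 CPM in heavy, had the smallest difference of the 5 (0.77 ± 0.15, adjusted p = 0.000558). Rheb ran the other way, from 161 and 127 CPM in medium to 53.7 and 48.9 CPM in heavy (-1.48 ± 0.20, adjusted p = 4.58e-05). The GTPase and its inhibitor Tsc2 were therefore called in opposite directions. Akt1 was lower in heavy polysomes at 111 and 123 CPM, against 170.1 and 163 CPM in medium (-0.51 ± 0.12, adjusted p = 0.00216). Rps6kb1 differed by -0.38 ± 0.22 (adjusted p = 0.165) and was not called, but passed with scaling by total counts, at -0.71 (adjusted p = 0.0145).

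Set against input, heavy polysomes of vehicle slices were higher for 4 of the 8 and lower for 3 (24.8% and 21.7% of all genes). Of genes with 4000 and more coding bases 42.2% were higher, and of those with 2000 to under 4000 43.9%. Of those under 1000, 50.4% were lower, and of those with 1000 to under 2000, 13.6%. Tsc2 (1.38 ± 0.16), Rptor (1.15 ± 0.20), Mtor (0.87 ± 0.27) and Tsc1 (0.57 ± 0.14) were higher, with adjusted p of 4.63e-05, 0.000395, 0.018 and 0.00558. The Mtor and Tsc1 calls were lost with scaling by total counts, at 0.48 (adjusted p = 0.131) and 0.18 (adjusted p = 0.293), and in limma on rescaled TPM, at 0.59 (adjusted p = 0.125) and 0.29 (adjusted p = 0.198). All 3 mRNAs of short or middling coding length, Rheb (-0.84 ± 0.20), Rps6kb1 (-0.75 ± 0.21) and Akt1 (-0.46 ± 0.12), were lower (adjusted p of 0.00377, 0.0103 and 0.00549). Rictor was not called (0.30 ± 0.24). Medium polysomes against input gave 1 member higher, Rheb at 0.63 ± 0.19 (adjusted p = 0.0375), and 2 lower, Mtor at -1.59 ± 0.28 (adjusted p = 0.00474) and Rictor at -1.25 ± 0.26 (adjusted p = 0.00731), beside 10.2% and 9.5% of all genes. Of genes with 4000 and more coding bases 39.5% were lower, and of those under 1000 19.4% were higher. The Rheb call was lost with total counts, at 0.58 (adjusted p = 0.0615), and in limma, at 0.47 (adjusted p = 0.0703), under which Rptor and Tsc2 were called lower. With the shared lysate as a block, Rptor (-0.55, adjusted p = 0.0166) and Tsc2 (-0.41, adjusted p = 0.0361) were also lower in medium than in input. Each vehicle side has 1 library per genotype, and the fit takes its spread from the HHT replicates. In WT or KO slices alone, no member was called between medium and input.

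**Figure D2:**
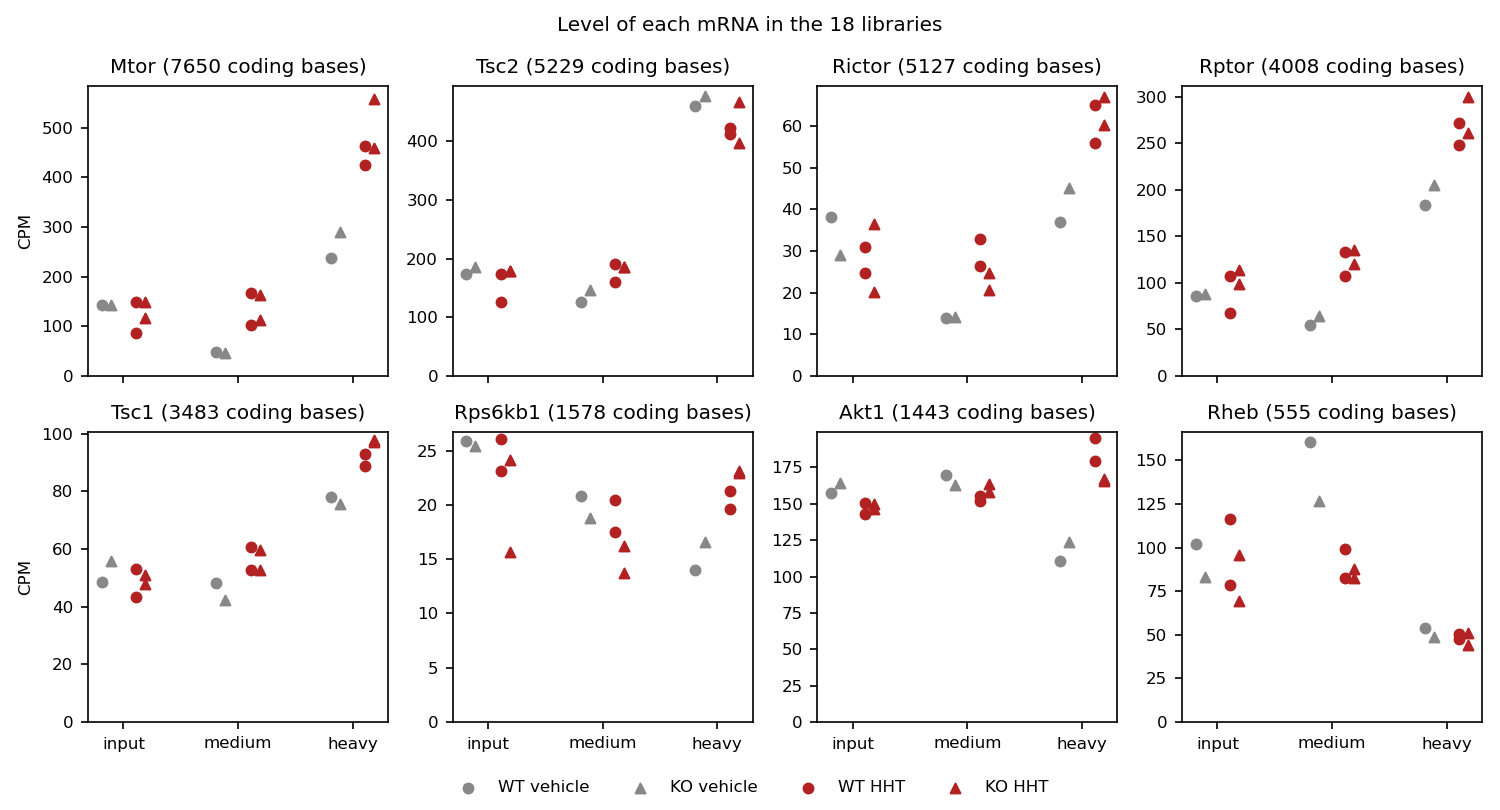
CPM of each mRNA in all 18 libraries, with 1 panel per gene in order of coding length, by fraction, treatment (grey vehicle, red HHT) and genotype (circles WT, triangles KO), each axis starting at 0. Mtor, Rptor, Rictor, Tsc1 and Tsc2 peak in heavy polysomes, and Rheb is lowest there. HHT points lie above vehicle points for Mtor, Rptor, Rictor and Tsc1 in both polysome fractions.

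In the lysate, HHT was followed by no called change in any of the 8 mRNAs by edgeR, beside 12.2% of all genes higher and 0.215% lower. DESeq2 also called none of the 8, beside 1514 of 13973 genes. None had an unadjusted p under 0.05 in edgeR, beside 3011 genes. Mtor read 144 CPM in the WT and 144 CPM in the KO vehicle library, and 149 and 86.1 CPM in the WT HHT and 149.6 and 116 CPM in the KO HHT libraries. Both HHT libraries of replicate 1 lay just above the vehicle values and both of replicate 2 below them. Differences between HHT and vehicle ran from -0.24 ± 0.20 for Rictor to 0.15 ± 0.17 for Rptor, and the 95% intervals of all 8 lay within -0.70 and 0.51. Akt1 alone did not overlap between treatments, with 143 to 150 CPM after HHT and 157 to 165 CPM in vehicle (-0.13 ± 0.10). The HHT lysates differ by number: with number 2 of each genotype alone, Mtor (-0.53, adjusted p = 0.0403) and Rictor (-0.61, adjusted p = 0.0364) were lower than in vehicle, and with number 1 alone Rptor was higher (0.34, adjusted p = 0.0139). Slices hold several cell types, and fewer cells of a type and less RNA per cell cannot be told apart. Summed over the 5 neuronal markers, vehicle and HHT libraries of this fraction held 6412 to 6889 and 7911 to 8797 CPM (2 rose and 0 fell), and over 4 markers of dentate and pyramidal neurons 525 to 539 and 453 to 497 CPM (0 rose and 0 fell). The same sums were 364 to 412 and 556 to 599.9 CPM for 3 astrocyte, 2172 to 2359.5 and 2505 to 3244 for 3 oligodendrocyte, 34.3 to 55.6 and 59.7 to 82.5 for 3 microglial, 8.38 to 9.31 and 20.6 to 26.6 for 3 vessel and 3.51 to 13.5 and 2.19 to 27.8 for the 2 measured blood markers, and the part of cell types in these values was not tested.

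In medium polysomes the shares of the kinase and of both scaffolds rose after HHT and that of Rheb fell. Of the 8 mRNAs 4 rose and 1 fell, beside 25.4% and 21.5% of all genes, and the median change of the 8 was 0.37 beside 0.03 over all genes. Of genes with 4000 and more coding bases 55.3% rose, and of those under 1000 43.5% fell. Mtor read 49.2 CPM in the WT and 46.2 CPM in the KO vehicle library, and 168 and 103 CPM in the WT HHT and 163 and 113 CPM in the KO HHT libraries. Every HHT library was above both vehicle libraries, and the rise was 1.52 ± 0.26 (2.86-fold, adjusted p = 0.000445). Rptor read 54.5 CPM in the WT and 64.8 CPM in the KO vehicle library, and 134 and 107 CPM in the WT HHT and 136 and 120.1 CPM in the KO HHT libraries. Its rise of 1.06 ± 0.18 (2.09-fold, adjusted p = 0.000429) again left no overlap between treatments.

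Rictor, the scaffold of mTORC2, read 13.9 CPM in the WT and 14.1 CPM in the KO vehicle library, and 32.8 and 26.5 CPM in the WT HHT and 24.8 and 20.6 CPM in the KO HHT libraries, a rise of 0.89 ± 0.23 (adjusted p = 0.00635). The inhibitory pair moved less. Tsc2 rose from 125 (WT) and 146 (KO) CPM to 191 and 161 (WT) and 186 and 185 (KO) CPM, a difference of 0.42 ± 0.14 (adjusted p = 0.0252), and Tsc1 differed by 0.32 ± 0.13 (adjusted p = 0.0528) without passing the test. The libraries of both did not overlap between treatments, and the share of all genes without overlap was not counted. Rheb fell from 161 (WT) and 127 (KO) CPM to 82.4 and 99.3 (WT) and 87.8 and 82.5 (KO) CPM (-0.70 ± 0.16, 1.62-fold lower, adjusted p = 0.00356). All 4 HHT libraries were below both vehicle libraries. The kinases Akt1 (-0.08 ± 0.10, 95% interval -0.30 to 0.13) and Rps6kb1 (-0.23 ± 0.18, -0.62 to 0.16) were not called.

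With scaling by total counts Tsc2 was not called (0.30, adjusted p = 0.0686), and Tsc1 passed in limma (0.41, adjusted p = 0.0458). The Tsc2 call was lost without KO HHT replicate 1 (0.40, adjusted p = 0.0674) or KO HHT replicate 2 (0.42, adjusted p = 0.0634), and Tsc1 passed without WT HHT replicate 2 (0.37, adjusted p = 0.0429). In KO slices alone, where 2 HHT libraries meet 1 vehicle library, Mtor and Rptor were called and Rictor, Tsc2 and Rheb were not. Vehicle slices have 1 unnumbered lysate per genotype, and the Mtor change in medium polysomes was 1.79 (adjusted p = 3.86e-10) with HHT lysates numbered 1 and 1.16 (adjusted p = 5.03e-05) with those numbered 2. Summed over the 5 neuronal markers, vehicle and HHT libraries of this fraction held 6988 to 7391 and 9609.7 to 10210.1 CPM (3 rose and 0 fell), and over 4 markers of dentate and pyramidal neurons 609 to 662 and 441 to 516 CPM (1 rose and 2 fell). The same sums were 376 to 388 and 486 to 635 CPM for 3 astrocyte, 2046 to 2103 and 1857 to 2632 for 3 oligodendrocyte, 22.6 to 28.2 and 42.2 to 71.8 for 3 microglial, 7.77 to 8.05 and 16.7 to 19.3 for 3 vessel and 3.70 to 11.6 and 1.41 to 6.11 for the 2 measured blood markers, and the part of cell types in these values was not tested.

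In heavy polysomes HHT was followed by a rise of all 3 kinases (Mtor, Akt1 and Rps6kb1) and of both scaffolds, and by no called fall. Of the 8 mRNAs 5 rose, beside 27.1% of all genes higher and 24.7% lower, with a median of 0.49 beside 0.06 over all genes. Of genes with 4000 and more coding bases 36.9% rose, and of those with 1000 to under 2000 28.1%. Mtor read 237 CPM in the WT and 289 CPM in the KO vehicle library, and 462 and 425 CPM in the WT HHT and 459 and 559 CPM in the KO HHT libraries. The lowest HHT library exceeded the higher vehicle library, and the rise was 0.86 ± 0.24 (1.81-fold, adjusted p = 0.00824). Akt1, the kinase upstream of Tsc2, read 111 CPM in the WT and 123 CPM in the KO vehicle library, and 179.8 and 195 CPM in the WT HHT and 166 and 167 CPM in the KO HHT libraries. Its rise of 0.59 ± 0.10 (1.51-fold) had the smallest adjusted p of the 8, 0.000281. Rps6kb1 read 14.0 CPM in the WT and 16.6 CPM in the KO vehicle library, and 19.6 and 21.3 CPM in the WT HHT and 23.2 and 22.9 CPM in the KO HHT libraries (0.51 ± 0.19, adjusted p = 0.0383). Both kinases were thus raised in heavy polysomes although neither was called in medium polysomes or in input.

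Rptor rose from 183 (WT) and 205 (KO) CPM to 272 and 248 (WT) and 261 and 299 (KO) CPM, a difference of 0.48 ± 0.17 (adjusted p = 0.0293). Rictor rose from 37.1 (WT) and 45.3 (KO) CPM to 56.0 and 65.2 (WT) and 60.2 and 67.0 (KO) CPM, a difference of 0.60 ± 0.21 (adjusted p = 0.0282). None of these libraries overlapped between treatments, and the share of all genes without overlap was not counted. The inhibitory pair was not called: Tsc1 differed by 0.29 ± 0.12 (adjusted p = 0.0661), with no overlap between treatments, and Tsc2 by -0.14 ± 0.13 (95% interval -0.43 to 0.15), with 461 to 477 CPM in vehicle and 398 to 467 CPM after HHT. Rheb read 48.9 to 53.7 CPM in vehicle and 44.1 to 50.8 CPM after HHT (-0.09 ± 0.18, 95% interval -0.47 to 0.29).

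The calls of Rptor, Rictor and Rps6kb1 in heavy polysomes depend on the scaling of the libraries, while those of Mtor and Akt1 were kept under every scaling tried. With RLE size factors, which set the median change of all genes at -0.06 instead of 0.06, Rptor was at 0.36 (adjusted p = 0.0928), Rictor at 0.49 (adjusted p = 0.0702) and Rps6kb1 at 0.40 (adjusted p = 0.0994), and DESeq2 called the same 2 as RLE did, Mtor and Akt1. Without WT HHT replicate 2, Rictor (0.54, adjusted p = 0.079) and Rps6kb1 (0.48, adjusted p = 0.0995) were not called. Without WT HHT replicate 1 Rps6kb1 was lost (0.54, adjusted p = 0.066), and without KO HHT replicate 2 Rptor was lost (0.43, adjusted p = 0.0968). Tsc1 passed with total counts (0.33, adjusted p = 0.0311), in limma (0.51, adjusted p = 0.0131) and on only the libraries compared (0.25, adjusted p = 0.0415), and Tsc2 was lower with HHT lysates numbered 1 alone (-0.21, adjusted p = 0.0494). In WT slices alone Akt1 and Rictor were called, and in KO slices alone Mtor. With HHT lysates numbered 1 alone the Mtor change in heavy polysomes was 0.81 (adjusted p = 5.9e-07), and with those numbered 2 alone 0.89 (adjusted p = 0.000175). Summed over the 5 neuronal markers, vehicle and HHT libraries of this fraction held 5621 to 6156 and 7485 to 9332 CPM (2 rose and 2 fell), and over 4 markers of dentate and pyramidal neurons 603 to 609 and 633 to 706 CPM (1 rose and 2 fell). The same sums were 392 to 436 and 276 to 388 CPM for 3 astrocyte, 1326 to 1373 and 2168 to 2433 for 3 oligodendrocyte, 38.6 to 43.2 and 23.8 to 38.9 for 3 microglial, 7.62 to 8.31 and 8.94 to 15.9 for 3 vessel and 1.11 to 5.27 and 0.749 to 4.01 for the 2 measured blood markers, and the part of cell types in these values was not tested.

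**Figure D3:**
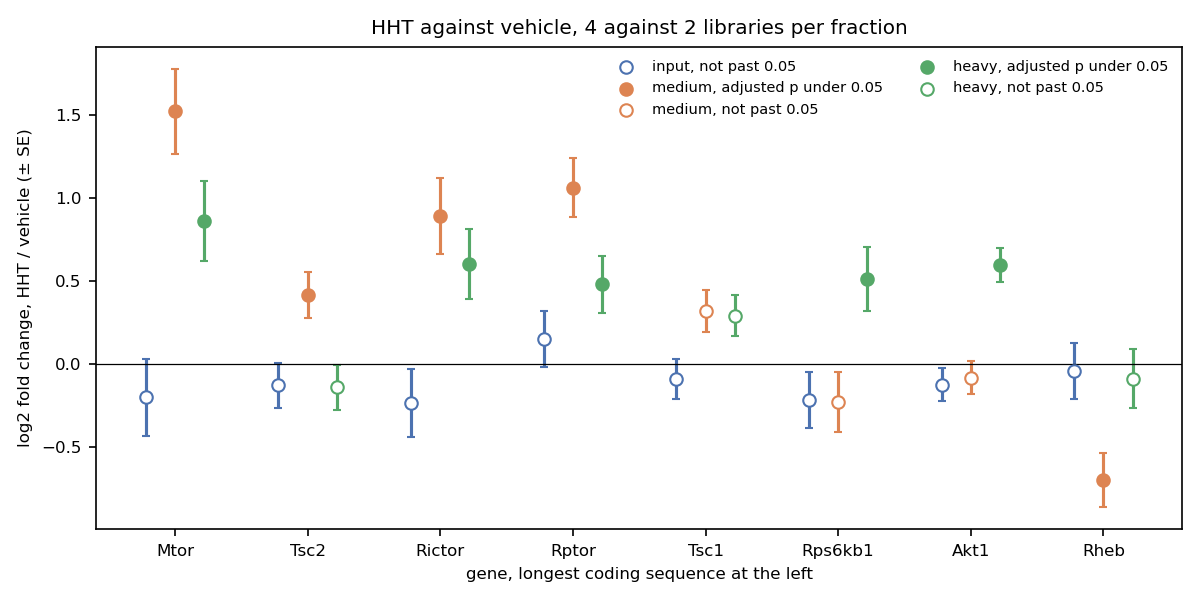
Log2 fold change ± SE between 4 HHT and 2 vehicle libraries for each mRNA in input (blue), medium (orange) and heavy polysomes (green), genes in order of coding length and filled points past an adjusted p of 0.05. No input point is filled, Mtor, Rptor and Rictor are filled and above 0 in both polysome fractions, Akt1 and Rps6kb1 are filled in heavy but not in medium polysomes, and Rheb is filled below 0 in medium polysomes.

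Whether the distribution over fractions changed with HHT was tested as the difference between the HHT and vehicle fraction differences. For heavy against input, 4 of the 8 shifted upward and none downward (12.6% and 16.3% of all genes): Mtor at 1.06 ± 0.33 (adjusted p = 0.0279), Rictor at 0.84 ± 0.29 (adjusted p = 0.0457), Akt1 at 0.72 ± 0.14 (adjusted p = 0.0024) and Rps6kb1 at 0.73 ± 0.26 (adjusted p = 0.0466). Of genes with 4000 and more coding bases 23.7% shifted upward, and of those with 1000 to under 2000 12.2%. The heavy over input ratio of Akt1 was 0.706 to 0.750 in the 2 vehicle lysates and 1.11 to 1.37 in the 4 HHT lysates, below 1 in all of the former and above 1 in all of the latter. For Mtor the same ratio was 1.65 to 2.01 in vehicle and 3.07 to 4.94 in HHT lysates, again with no overlap. For Tsc2 it was 2.57 to 2.65 in vehicle and 2.21 to 3.36 in HHT lysates, a shift of -0.01 ± 0.19 (95% interval -0.43 to 0.40). With RLE size factors the Rictor (0.78, adjusted p = 0.0651) and Rps6kb1 (0.67, adjusted p = 0.0665) shifts were lost, and Tsc1 passed with total counts (0.53, adjusted p = 0.0288). Without KO HHT replicate 2, the shift was called for Akt1 alone. The Rictor and Rps6kb1 shifts were also lost when either WT HHT replicate was left out.

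For medium against input, 3 of the 8 shifted upward (7.09% of all genes higher and 10.2% lower): Mtor at 1.72 ± 0.34 (adjusted p = 0.00609), Rictor at 1.13 ± 0.31 (adjusted p = 0.0239) and Rptor at 0.91 ± 0.24 (adjusted p = 0.0205). Of genes with 4000 and more coding bases, the class of all 3, 33.7% shifted upward. The medium over input ratio of Mtor was 0.321 to 0.343 in vehicle and 0.967 to 1.20 in HHT lysates. With the shared lysate as a block, Tsc2 (0.55, adjusted p = 0.0242) and Rheb (-0.65, adjusted p = 0.0382) also passed, Tsc2 upward and Rheb downward. Rptor was lost without KO HHT replicate 2 (0.90, adjusted p = 0.0766), and Rictor without WT HHT replicate 1 (1.14, adjusted p = 0.0516) or WT HHT replicate 2 (1.13, adjusted p = 0.063).

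For heavy against medium, Akt1 (0.68 ± 0.14, adjusted p = 0.00265) and Rps6kb1 (0.74 ± 0.26, adjusted p = 0.0402) shifted upward and Tsc2 downward (-0.56 ± 0.19, adjusted p = 0.0368), beside 18.1% of all genes upward and 18.4% downward. Of genes with 4000 and more coding bases, the class of Tsc2, 22.1% shifted downward. Of those with 1000 to under 2000, the class of Akt1 and Rps6kb1, 14.9% shifted upward. The heavy over medium ratio of Akt1 was 0.652 to 0.758 in vehicle and 1.01 to 1.26 in HHT lysates, and that of Rps6kb1 was 0.673 to 0.882 and 1.04 to 1.67. For Tsc2 it was 3.26 to 3.67 in vehicle and 2.14 to 2.63 in HHT lysates. None of the 3 ratios overlapped between treatments, and the share of all genes without overlap was not counted. The Rps6kb1 shift was lost with RLE size factors (0.66, adjusted p = 0.0642) and in DESeq2, and that of Tsc2 with total counts (-0.40, adjusted p = 0.0915) and in limma. The lysate block added Mtor (-0.62, adjusted p = 0.0487) and Rptor (-0.57, adjusted p = 0.0198) downward and Rheb upward (0.61, adjusted p = 0.0369). Of the 3 calls, Akt1 alone was kept when WT HHT replicate 1 or KO HHT replicate 2 was left out. Tsc2 was lost without KO HHT replicate 1 (-0.50, adjusted p = 0.111). Without WT HHT replicate 2, Rps6kb1 was lost and Mtor (-0.78, adjusted p = 0.0444), Rptor (-0.63, adjusted p = 0.031) and Rheb (0.70, adjusted p = 0.0395) passed.

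After HHT, too, the 5 longest mRNAs were higher in heavy than in medium polysomes. Against medium, 5 of the 8 were higher and 1 lower (19% and 16.8% of all genes), with Mtor at 1.80 ± 0.19 (adjusted p = 2.28e-05), Rictor at 1.26 ± 0.17 (adjusted p = 9.9e-05), Tsc2 at 1.23 ± 0.11 (adjusted p = 7.54e-06), Rptor at 1.12 ± 0.14 (adjusted p = 5.26e-05) and Tsc1 at 0.74 ± 0.10 (adjusted p = 0.000109). Rheb was lower (-0.87 ± 0.14, adjusted p = 0.000406). Of genes with 4000 and more coding bases 76.7% were higher, and of those with 2000 to under 4000 37.9%. Of those under 1000, 35.6% were lower. Akt1 (0.17 ± 0.08, adjusted p = 0.124) and Rps6kb1 (0.36 ± 0.14, adjusted p = 0.0647) did not pass. Set against input, heavy polysomes were higher for 79.2% of genes with 4000 and more coding bases and 50.8% of those with 2000 to under 4000. They were lower for 61.2% of those under 1000. Against input, 6 of the 8 were higher in heavy polysomes and Rheb was lower (27.6% and 30.4% of all genes), led by Mtor at 1.92 ± 0.19, Rptor at 1.48 ± 0.14 and Tsc2 at 1.37 ± 0.11. Akt1 was the smallest of these, at 0.26 ± 0.08 (adjusted p = 0.0138), and came to 0.02 (adjusted p = 0.834) with scaling by total counts; it was also lost without WT HHT replicate 2, KO HHT replicate 1 or KO HHT replicate 2. Rps6kb1 differed from input by -0.02 ± 0.14 (95% interval -0.33 to 0.28).

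In the main fit, which does not pair the fractions of a lysate, medium polysomes after HHT gave no call against input. Of the 8, none passed in edgeR, beside 13.4% of all genes higher and 17% lower. At an unadjusted p under 0.05 in edgeR were 2 of the 8, beside 5878 of 13973 genes. DESeq2 called 1, Rptor, beside 3566 genes. Rptor (0.36 ± 0.14, adjusted p = 0.0601) and Rps6kb1 (-0.39 ± 0.14, adjusted p = 0.0538) were nearest to the threshold and passed with the lysate as a block, at adjusted p of 0.0116 and 0.0248. Over the HHT lysates the medium over input ratio was 1.19 to 1.58 for Rptor and 0.673 to 0.872 for Rps6kb1. Without WT HHT replicate 1, Rptor also passed (0.47, adjusted p = 0.0237). The 8 differences ran from -0.39 to 0.36, and their 95% intervals reached from -0.70 to 0.65.

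The order of the 8 mRNAs between heavy and medium polysomes was nearly the order of their coding lengths. Across the 8, the log2 of coding length and the heavy over medium difference had a Pearson r of 0.981 in vehicle and 0.989 in HHT slices, beside 0.684 and 0.666 over 13049 genes. These are descriptions across genes that share the same libraries. The median over all genes rose through the length classes in vehicle slices, from -0.83 for 3904 genes under 1000 coding bases (the class of Rheb) through -0.02 for 5106 genes from 1000 to under 2000 (Akt1 and Rps6kb1) and 0.53 for 3095 genes from 2000 to under 4000 (Tsc1) to 0.93 for 944 genes of 4000 and more (Mtor, Rptor, Rictor and Tsc2). In HHT slices the same medians were -0.31, -0.04, 0.26 and 0.76. Mtor lay 1.53 above its class median in vehicle and 1.04 above it in HHT slices, and Rheb lay at -0.64 and -0.56 relative to its own.

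**Figure D4:**
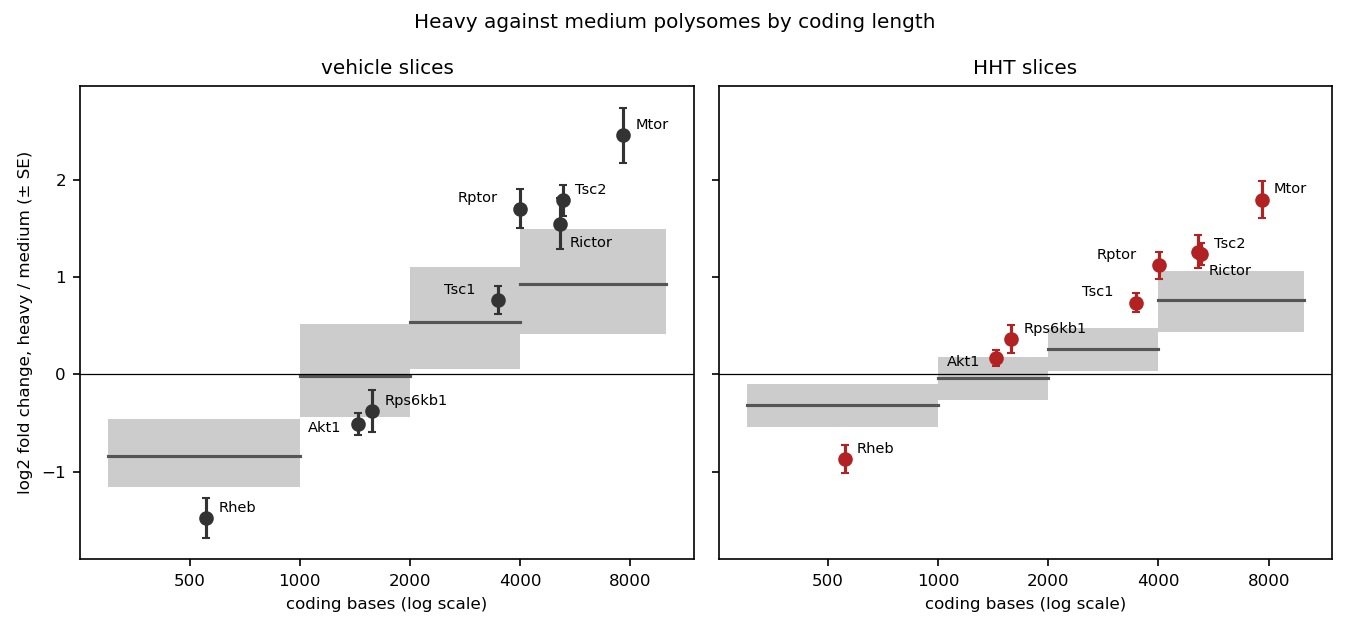
Log2 fold change ± SE of heavy over medium polysomes against coding length (log scale) in vehicle (left) and HHT slices (right), with the median (line) and middle range from the lower to the upper quartile (grey) of all genes in 4 length classes, of which the shortest and the longest are open-ended and drawn up to the edge. Rheb is lowest and Mtor highest on both sides, and Akt1 and Rps6kb1 lie below their class median in vehicle and above it after HHT.

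The change with HHT ran with length in medium polysomes and less so in heavy ones. In medium polysomes the class medians of the HHT change were -0.37, 0.00, 0.29 and 0.54 from the shortest to the longest class. The r with log2 coding length was 0.916 over the 8 and 0.445 over all matched genes. Mtor exceeded its class median by 0.98 and Rptor by 0.52, and Tsc2 differed from it by -0.12. In heavy polysomes the class medians were 0.14, -0.06, -0.13 and 0.25, with r of 0.399 over the 8 and 0.0369 over all matched genes. There Akt1 exceeded the median of its class by 0.66, Mtor by 0.61 and Rps6kb1 by 0.57, while Tsc2 differed from it by -0.39.

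Between KO and WT slices under HHT, none of the 8 mRNAs was called in any fraction. By edgeR the count was 0 in input, medium and heavy polysomes alike, and the share of all genes called was 0% in each. DESeq2 also called 0 of the 8, beside 4, 2 and 1 of 13973 genes in input, medium and heavy. At an unadjusted p under 0.05 in edgeR the count was 0, beside 679, 387 and 412 genes. Even Fmr1, whose WT and KO libraries did not overlap, was missed by edgeR in every fraction. Its estimates for input, medium and heavy polysomes were -2.00 ± 0.27, -1.61 ± 0.28 and -1.54 ± 0.30. After adjustment the edgeR p-values of Fmr1 were 0.0647, 0.722 and 0.751, in the same order. DESeq2 called Fmr1 in all 3 fractions. The lack of edgeR calls among the 8 is therefore weak evidence that genotype left them unchanged. In heavy polysomes Mtor read 462 and 425 CPM in WT and 459 and 559 CPM in KO, a difference of 0.20 ± 0.27 (95% interval -0.37 to 0.77). Tsc2 read 412 and 423 CPM in WT and 398 and 467 CPM in KO (0.05 ± 0.16, -0.28 to 0.39). The genotypes overlapped for both. The largest estimates were for Rictor in medium polysomes, with 32.8 and 26.5 CPM in WT and 24.8 and 20.6 CPM in KO (-0.38 ± 0.24, -0.90 to 0.14), and for Rps6kb1 in the same fraction, with 17.5 and 20.5 CPM in WT and 16.3 and 13.7 CPM in KO (-0.34 ± 0.20, -0.79 to 0.10). In medium polysomes the KO libraries of both were below the WT libraries, with 2 on each side. In heavy polysomes those of Rps6kb1 were above them, at 19.6 and 21.3 CPM in WT and 23.2 and 22.9 CPM in KO (0.17 ± 0.20). The genotypes also did not overlap for Tsc2 in input, Akt1 in medium, and Tsc1 and Akt1 in heavy polysomes. With 2 libraries on each side, such separation often arises without a difference, and its share over all genes was not counted.

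Over the 8 mRNAs and 3 fractions the estimates lay between -0.38 and 0.27, and the 95% intervals reached from -0.90 to 0.77, so changes larger than these bounds are outside the intervals and smaller ones are not resolved by 2 against 2 libraries. Akt1 had the narrowest interval, at -0.23 to 0.26 in input and -0.42 to 0.07 in heavy polysomes. In the vehicle slices, where each genotype has 1 library per fraction and no contrast of genotypes was tested, Mtor read 237 CPM in WT and 289 CPM in KO heavy polysomes and Tsc2 461 and 477 CPM. The dependence of the HHT change on genotype was tested as an interaction, with 0 of 8 called by edgeR and DESeq2 in each fraction. Of all genes, 0%, 0% and 0% were called in input, medium and heavy. At an unadjusted p under 0.05 in edgeR were 0 of 8, beside 214, 187 and 104 of 13973 genes. The interaction estimates ran from -0.41 to 0.41, with 95% intervals reaching -1.39 and 1.30.

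**Figure D5:**
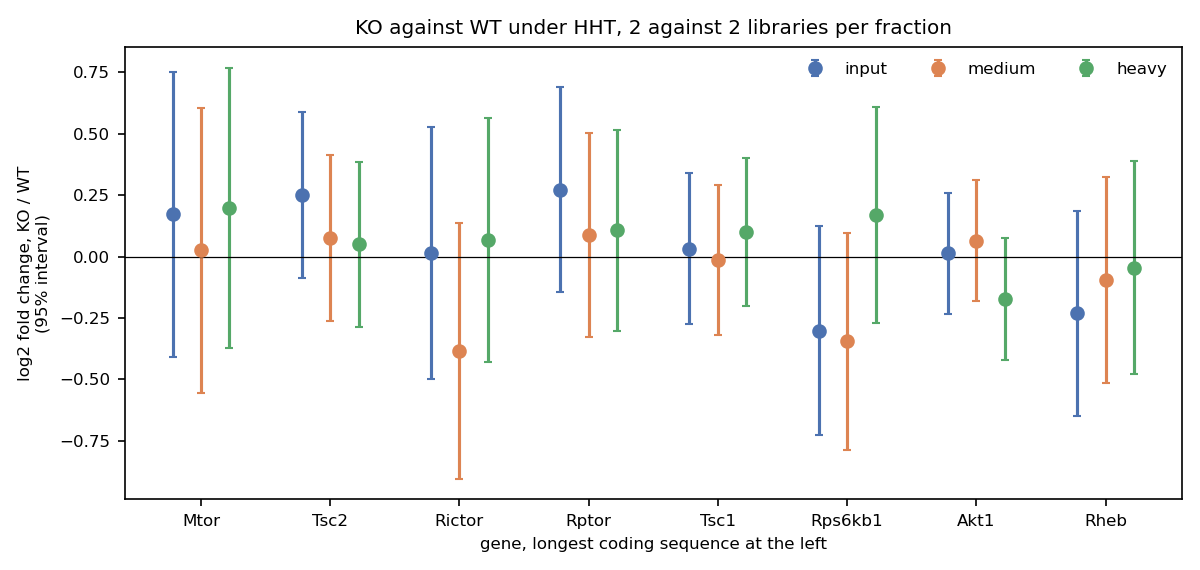
Log2 fold change of KO over WT under HHT with its 95% interval for each mRNA in input (blue), medium (orange) and heavy polysomes (green), 2 against 2 libraries, genes in order of coding length. Every interval includes 0.

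Around the 8 core genes, 74 further genes of the pathway were followed in 5 lists, and all were measured. After HHT, 1 of the 74 rose and 0 fell in input, beside 12.2% and 0.215% of all genes. In medium polysomes 16 rose and 21 fell, beside 25.4% and 21.5% of all genes. Heavy polysomes gave 12 up and 26 down of the 74, beside 27.1% and 24.7% of all genes. Their median change in heavy polysomes was -0.10, beside 0.49 for the 8 and 0.06 for all genes. Growth factor receptors and PI3K genes, which feed into Akt, gave 5 up and 1 down of 14 in heavy polysomes (27.1% and 24.7% of all genes). Igf1r, the receptor of insulin-like growth factor, changed by 2.62 ± 0.32 (adjusted p = 2.05e-05) and the insulin receptor Insr by 2.24 ± 0.31 (adjusted p = 5.32e-05). Igf1r rose from 25.7 (WT) and 32.1 (KO) CPM to 171 and 157 (WT) and 195 and 187 (KO) CPM. Insr was the 1 gene of the 74 that rose in input (1.17 ± 0.29, adjusted p = 0.017).

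Genes of amino acid sensing, which brings mTORC1 to the lysosome, gave 4 up and 12 down of 26 in heavy polysomes, beside 27.1% of all genes up and 24.7% down. Rraga, a GTPase that recruits mTORC1, read 279 CPM in the WT and 274 CPM in the KO vehicle library, and 89.7 and 86.6 CPM in the WT HHT and 98.9 and 89.1 CPM in the KO HHT libraries. The groups did not overlap, and the change was -1.60 ± 0.13 (adjusted p = 3.38e-06). Nprl2, a subunit of the complex that inhibits these GTPases, changed by -1.08 ± 0.13 (adjusted p = 1.62e-05) and the GTPase Rragb by -0.91 ± 0.11 (adjusted p = 1.85e-05). In vehicle slices Rraga was higher in heavy polysomes than in input (1.23 ± 0.16, adjusted p = 6.95e-05), and its coding sequence has 942 bases.

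Effectors downstream of the kinase gave 1 up and 8 down of 18 in heavy polysomes (27.1% and 24.7% of all genes), and 6 up and 4 down in medium (25.4% and 21.5%). Pdcd4, an inhibitor of translation initiation that S6 kinase marks for degradation, changed by -1.21 ± 0.13 (adjusted p = 1.17e-05), Sgk1, a kinase activated by mTORC2, by -0.79 ± 0.10 (adjusted p = 3.33e-05) and Eef2k, the kinase of elongation factor eEF2, by -0.63 ± 0.11 (adjusted p = 0.000315). Partners of the complexes gave 1 up and 3 down of 8 in heavy polysomes, beside the same shares of all genes, among them Mlst8, a subunit of both complexes, at -0.76 ± 0.13 (adjusted p = 0.00026), and the assembly factors Tti1 at -0.72 ± 0.14 (adjusted p = 0.000585) and Telo2 at -0.58 ± 0.15 (adjusted p = 0.00579). In medium polysomes Tti1 (0.45 ± 0.15, adjusted p = 0.0253), Telo2 (0.46 ± 0.17, adjusted p = 0.0341) and Eef2k (0.80 ± 0.12, adjusted p = 0.000236) rose. Of 8 genes that control the Tsc complex or resemble Rheb, 1 rose and 2 fell in heavy polysomes, again beside 27.1% and 24.7% of all genes: Stk11, the kinase that activates AMPK, by 0.68 ± 0.11 (adjusted p = 0.00018), the AMPK subunit Prkaa1 by -0.86 ± 0.18 (adjusted p = 0.00101) and the stress-induced inhibitor Ddit4 by -0.44 ± 0.12 (adjusted p = 0.00766). The lists were drawn up with earlier results of these data known.

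Across the 18 libraries, the levels (log2 CPM) of the 5 long mRNAs moved together, with pairwise Pearson r between 0.829 (Rictor and Tsc2) and 0.962 (Mtor and Rptor). Rheb ran against each of them, with r from -0.901 to -0.957. Akt1 and Rps6kb1 followed neither, with r between -0.201 and 0.251 to the 5 and 0.370 to each other. Among 10787 genes of at least 5 CPM on average, those most like Mtor were Fasn, Gcn1l1 and Ints1, with r of 0.997 for Fasn, whose coding sequence has 7515 bases. Those most like Rptor were Eif4g1, Gtf3c1 and Rasgrf1 (r = 0.991 for the first), and those most like Rictor were Dmxl2, Nbea and Dennd4a (r = 0.988). Tsc1 was nearest to Dip2c, Chd5 and Ptpn14 (r = 0.988), and Tsc2 to Cdc42bpb, Sipa1l3 and Nisch (r = 0.991). In the gene models used, likeness did not always go with length, since the transcript chosen for Nisch has 1551 coding bases, fewer than Tsc2. Other transcripts of Nisch were not examined. For Rheb the nearest were Ptma, Ypel5 and Btf3l4 (r = 0.984 for Ptma, with 336 coding bases). Akt1 (Slc25a51, Lrrc75b and Stk11, r = 0.915) and Rps6kb1 (BC003331, Rc3h2 and Smek2, r = 0.877) had no match as close. Rc3h2, with 3564 coding bases, is longer than Rps6kb1. The points share libraries, fractions and treatments, so these values describe the libraries and carry no test.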

How the data were processed

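The libraries measure total RNA of input, medium and heavy polysomes from WT and Fmr1 KO slices. Slices were homogenised without detergent, and 1% NP-40 was added after clearing at 2000 and 10000 g, per the labels' protocols. Per the submitters' processing notes, the tools were DESeq2 1.16.1, RSEM 1.2.11, Trimmomatic 0.32 and Bowtie2 2.1.0 and the build was mm10; their roles are not given there. The deposited count table holds the authors' estimated counts (expected counts), none of whose 251514 values is whole within 1e-06. The second deposited table, called TPM by the authors, is a score here (rescaled TPM), since some of its columns sum to more than TPM can, and it served to compare levels between genes. The names of both tables speak of 2 batches without saying which libraries form them, and whether the authors adjusted for batches or removed duplicate reads is not stated.

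Counts were rounded and fitted with edgeR 4.0.16 (R 4.3.3; TMM scaling, quasi-likelihood F-test, 2-sided) with 1 mean for each of the 12 groups of the 18 libraries (6 residual degrees of freedom), with Benjamini-Hochberg adjustment within each of 18 comparisons at 0.05. The filter on low counts kept all 13973 genes. Comparisons of treatments or fractions weigh the genotypes equally. The procedure was tested on simulated data for HHT against vehicle in heavy polysomes. The simulation changed few genes and drew all libraries independently, unlike these data, so it does not bear on the scaling or on shared lysates. CPM used TMM-scaled library sizes. Gene models are from GENCODE M21, and 93.4% of genes matched a coding transcript by symbol.

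Input, medium and heavy libraries with the same number, genotype and treatment share a lysate, per the labels' protocols. The main fit has no term for the lysate, and the block for lysate is an alternative. Equal numbers in WT and KO are not stated to share a preparation, and with 2 pairs the deviations of replicates correlated across genes at 0.323 in input, 0.165 in medium and 0.00332 in heavy polysomes. HHT lysates numbered 2 had lower smallest values in the rescaled TPM table than all other libraries. The genes named are the 8 members, the 3 genes of each pathway list with the smallest adjusted p for HHT against vehicle in heavy polysomes, the 3 genes closest to each member across libraries, and Fmr1. One gene that this rule names is not reported here. The members and lists were chosen with earlier results of these data known. Alternatives were DESeq2 1.42.0, RLE and total-count scaling, no filter, limma 3.58.1 on log2(rescaled TPM + 1), fits on fewer libraries, each genotype alone, each HHT lysate left out, and blocks for lysate or replicate number. HHT lysates numbered 1 or 2 alone were chosen after seeing the data.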

Additional observations from a re-analysis of the deposited data

How the results depend on the processing

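Of 50 calls of the 8 mRNAs over the 18 comparisons, none changed direction under any alternative. RLE scaling kept 44, scaling by total counts 44, DESeq2 45 and limma on rescaled TPM 46. The fit with no filter is the same fit, since the filter removed no gene. For HHT against vehicle in heavy polysomes, RLE and DESeq2 called 2 of the 8 instead of 5, and for the shift of heavy against input RLE called 2 instead of 4. For medium against input after HHT, RLE, total counts and DESeq2 called 1 instead of 0. The cause was not tested. Total counts moved the median of all genes from -0.08 to -0.42 for heavy against medium and from -0.02 to -0.41 for heavy against input in vehicle slices, and limma moved it from 0.06 to 0.24 for HHT in heavy polysomes, so changes count relative to these shifts.

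Leaving out 1 HHT lysate kept 41 to 46 of the 50 calls. Counts then ran from 4 to 6 for HHT in medium and 3 to 5 in heavy polysomes, from 0 to 1 for medium against input after HHT, from 2 to 4 for the same in vehicle slices, and from 2 to 3, 1 to 4 and 1 to 5 for the shifts of medium against input, heavy against input and heavy against medium. WT slices alone called 2 for HHT in heavy polysomes, 0 for medium against input in vehicle and 1 for each of the 3 shifts. KO slices alone called 2 and 1 for HHT in medium and heavy polysomes, 0 and 4 for medium and heavy against input in vehicle, and 0 for each of the 3 shifts. With only the libraries compared, the shift of heavy against input had 2 calls and that of heavy against medium 5, and 3 vehicle comparisons of fractions could not be fitted for want of residual degrees of freedom.

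The replicate block for lysate kept all 40 calls of the comparisons where it applies. It gave 2 calls for medium against input after HHT, 5 in vehicle slices, 5 for the shift of medium against input and 6 for that of heavy against medium. A block for replicate number gave 0 calls between KO and WT in every fraction, and no paired analysis was possible for HHT against vehicle or its dependence on genotype because vehicle libraries carry no number. Chosen after seeing the data, HHT lysates numbered 1 alone called 1 of the 8 in input, 2 for medium against input after HHT, 5 for its shift and 6 for the shift of heavy against medium, and those numbered 2 alone called 2, 1, 5 and 1. No alternative called a member between KO and WT. Depth limits Rps6kb1 and Rictor most, at 76.3 and 105 counts in their shallowest libraries.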
